A study of Rattus norvegicus with 24 samples.

Results

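The odd-numbered rats of a PCB 52 inhalation study were examined here as a comparison of their own. They were chosen by animal number and treatment label alone, and no measured value entered the choice: animals 1, 3, 5, 7, 9 and 11 are labelled sham and animals 13, 15, 17, 19, 21 and 23 are labelled PCB 52. These 12 livers, 6 in each group, are all the males among the 24 rats of the study, and the even-numbered rats are the females. Both groups were Sprague-Dawley rats, an outbred stock, and the labels name no transgene or deletion. They arrived at 28 days of age, were randomised at 39 days and entered a nose-only inhalation chamber for 4 hours a day over 28 days. For the even-numbered females the labels give 42 days in place of 39. Exposed animals breathed filtered air that had passed over glass beads coated with PCB 52, at 12 L/min. The labels do not say what the sham animals breathed, nor how much PCB 52 reached the liver. Each library came from a piece of liver of 1 animal, and liver RNA was counted per gene by bulk RNA sequencing. The comparison asks which transcripts of the male adolescent liver differ after inhaled PCB 52.

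PCB 52 is a polychlorinated biphenyl with chlorines in ortho positions, a lower-chlorinated and relatively volatile congener found in indoor air. PCBs of this kind are known as ligands or activators of the hepatic receptors CAR and PXR, which switch on Cyp2b and Cyp3a enzymes, while flat dioxin-like PCBs act on AhR and Cyp1a enzymes. Liver also makes most plasma proteins, so its hepatocytes carry a large secretory apparatus: proteins enter the endoplasmic reticulum (ER) through the translocon, are folded by chaperones and leave in COPII vesicles for the Golgi. Hepatocytes further secrete hepcidin, the hormone that limits iron uptake and release, whose gene Hamp is driven by BMP signals and by inflammation.

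The 12 libraries held 6994832 to 8439221 counts and 12011 to 12306 genes with counts. Levels are given as CPM, counts per 1e+06 library counts, so that 1 count was worth 0.118 to 0.143 CPM. The Y-linked Ddx3y ran from 52.5 to 79.9 CPM and was at 0 in all even-numbered animals, while Xist stayed between 3.08 and 10.8 CPM against 814 to 1388 CPM there, so the sex labels match. Albumin took 9.32 to 11.5% of counts. The adipocyte hormones Adipoq and Lep and the neutrophil granule genes Mpo, Elane and Camp were at 0 in all 12 libraries. Animals 13 and 15 had the highest scores on a library axis, the leading component of variation within groups of the even-numbered animals. They scored 9.32 and 8.31, above sham scores of −7.12 to 6.98, and the other exposed animals ran from −6.23 to 4.87. Sham animal 11, at 6.98, lay nearer to them than any other exposed animal. It was kept in the fits without animals 13 and 15. The mean score was 2.12 in exposed and −2.12 in sham animals (two-sided exact permutation p = 0.219 over 924 splits, where the smallest p the design allows is 0.00216). For several results, but not all that may move with this axis, a fit without animals 13 and 15 or with the score as a covariate is also given.

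No gene passed the test across the genome. By the edgeR quasi-likelihood test with Benjamini-Hochberg adjustment, 0 of 10180 genes tested had an adjusted p below 0.05 (0%), and the smallest adjusted p was 0.322. At an unadjusted p below 0.05 there were 585 genes, or 5.75%, of which 295 (2.90%) were higher and 290 (2.85%) lower in exposed animals. DESeq2 called 1 gene, Tssc4, limma-voom called 0, and they gave 611 and 563 genes at an unadjusted p below 0.05. The median log2 fold change over all genes was 0.00 and the median size 0.10, beside a median standard error (SE) of 0.12. On simulated counts of 10106 genes the same test recovered 71.8% of genes changed 1.5-fold, 90.3% of those changed 2-fold and 92.5% of those changed 3-fold. These counts were drawn independently for each gene and library, without variation shared across genes such as the library axis. They held 71, 62 and 67 genes changed at these folds, with the spread of each gene as edgeR had estimated it. With that many changed genes the adjusted threshold is easier to reach. Recovery of only a few changed genes was therefore not measured. Recovery in the real libraries, and for genes with a large SE such as Cyp2b1 (0.45), was not measured. As no gene passed, the genes below are described by their levels and their spread, and none is called changed by edgeR.

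Among the genes with the smallest p on the lower side were Tssc4, Loxl1, Hamp, RT1-A1 and Apoa5. Tssc4 is a splicing factor needed to assemble the U5 particle, and Loxl1 crosslinks elastin. RT1-A1 is an MHC class I gene, and Apoa5 is an apolipoprotein that promotes clearance of plasma triglyceride. Lowest, median and highest levels of Tssc4 were 15.7, 16.2 and 21.1 CPM in sham and 9.84, 11.1 and 12.99 CPM in exposed animals. The lowest sham animal thus lay above the highest exposed animal, number 17. The log2 fold change was −0.60 ± 0.11 (SE), with an adjusted p of 0.322 by the edgeR quasi-likelihood test and 0.0234 by DESeq2, in which Tssc4 fell. It stayed between −0.65 and −0.53 with any 1 library left out.

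Loxl1 was scarce, at 2.57, 2.96 and 4.06 CPM in sham and 0.741, 1.46 and 2.01 CPM in exposed animals (lowest, median and highest). Animal 23 was the lowest and sham animal 9 the highest, and the groups did not overlap. Its log2 fold change was −1.08 ± 0.24, the largest among the 20 genes named for small p. Apoa5, an abundant transcript, averaged 1368 ± 102 CPM in sham and 1118 ± 81.5 CPM in exposed animals (SD, n = 6), without overlap and with a log2 fold change of −0.27 ± 0.07. Each of these had an adjusted p of 0.829 by the edgeR quasi-likelihood test, as did the other genes named for small p on either side, Tssc4 excepted.

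The other lower genes named were Zfp697, a zinc finger gene (−0.48 ± 0.12), Rcc1l, a mitochondrial protein of the RCC1 family (−0.39 ± 0.10), Dnaaf10, which helps to assemble dynein arms (−0.51 ± 0.13), Szrd1 (−0.28 ± 0.08) and Rnf8, a ubiquitin ligase of the DNA damage response (−0.37 ± 0.11), all as log2 fold changes with SE. Of these only Szrd1 had groups without overlap, at 58.6 to 68.8 CPM in sham and 46.5 to 54.7 CPM in exposed animals. For each of the 20 genes named, 6 of 6 exposed animals were on one side of the mean of sham animals, as naming by small p favours.

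**Figure D1:**
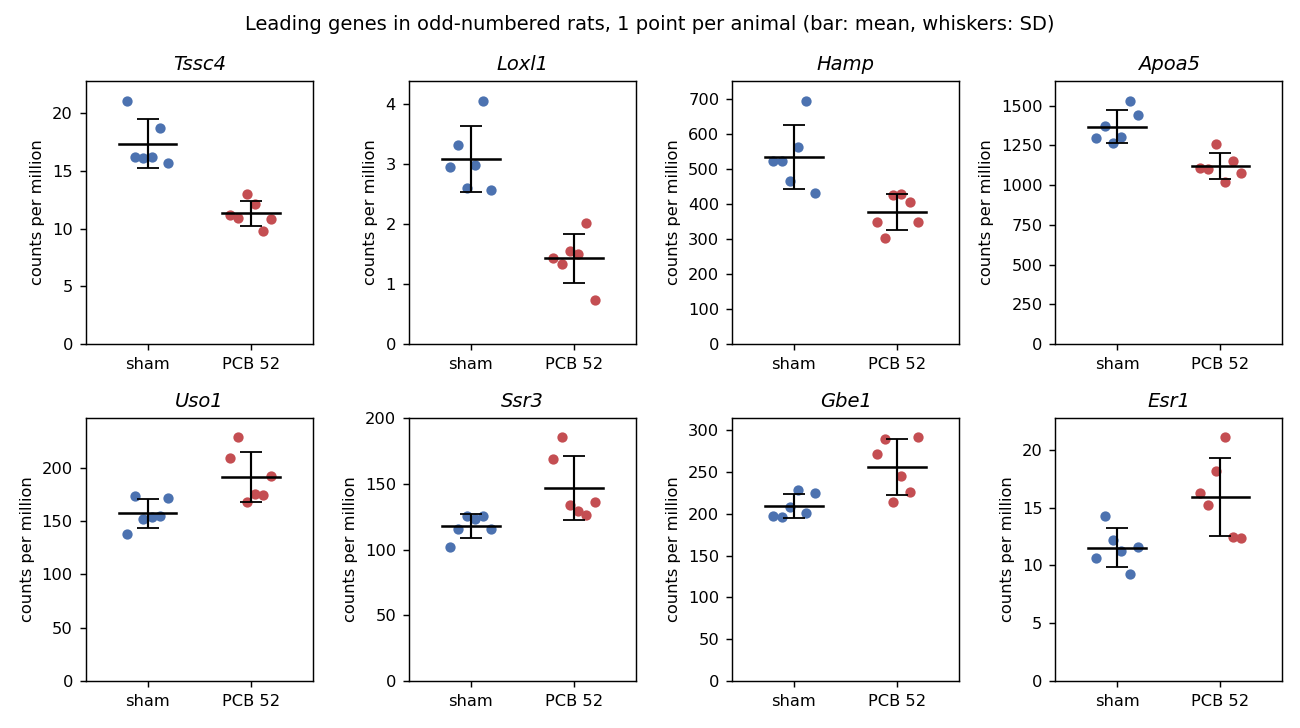
Levels in CPM of 8 of the named genes in each odd-numbered animal, with 1 point per animal, the mean as a bar and the SD as whiskers, from a baseline of 0. The sham and exposed points do not overlap for Tssc4, Loxl1, Hamp, Apoa5 and Ssr3, and do overlap for Uso1, Gbe1 and Esr1.

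Across all tested genes, groups without overlap were seen for 24 genes (0.236%), 6 higher (0.0589%) and 18 lower (0.177%). Among the 924 splits of these animals, a fraction of 0.00216 separates the groups fully in either direction. The share of genes without overlap was thus close to what chance alone gives. A lack of overlap by itself therefore sets no gene apart, here or for the genes named for small p. The higher genes without overlap, chosen after their values were seen, were Ssr3, Tnfaip8, Tatdn3, Slc1a3, Mettl2 and Plod2. Plod2, a lysyl hydroxylase of collagen, stood at 1.47 ± 0.270 CPM in sham and 2.18 ± 0.471 CPM in exposed animals (log2 fold change 0.57 ± 0.24). Among the lower ones were Cox5a, a subunit of cytochrome c oxidase (−0.21 ± 0.08), Cisd1, an iron-sulfur protein of the outer mitochondrial membrane (−0.24 ± 0.08), Spry1, an inhibitor of growth factor signalling (−0.33 ± 0.12), and Plvap, the diaphragm protein of fenestrated endothelium (−0.45 ± 0.14), also named after seeing the values.

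A log2 fold change beyond 1 in size was found for 6 genes, which apart from Loxl1 rested on wide spreads. A2m, the rat acute phase protein alpha-2-macroglobulin, had a log2 fold change of 1.07 ± 0.42, with 31.9, 52.2 and 102 CPM in sham and 51.5, 88.2 and 250.2 CPM in exposed animals (lowest, median and highest). Exposed animal 13 was highest, and without it the log2 fold change was 0.71. Mup4l3, a major urinary protein gene, had −2.21 ± 1.11, with sham animal 7 at 228 CPM and the remaining sham animals at 1.96 to 27.9 CPM. Gadd45g had −1.03 ± 0.61, Inava 1.04 ± 0.40 and Patel14l3 −1.12 ± 0.51.

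Hamp led the iron genes. It stood at 432, 524 and 696 CPM in sham and 303, 379 and 429 CPM in exposed animals (lowest, median and highest), and its highest exposed animal, number 19, lay just under the lowest sham animal, number 11. The log2 fold change was −0.48 ± 0.12 with an adjusted p of 0.829 by the edgeR quasi-likelihood test. It was −0.38 without animals 13 and 15 and −0.34 when the library axis score was a covariate. Id1, another target of BMP signals, stood at 5.15 ± 1.48 CPM in sham and 3.29 ± 0.764 CPM in exposed animals (SD, n = 6; log2 fold change −0.62 ± 0.21). The ferritin heavy chain gene Fth1, which stores iron, had −0.20 ± 0.08, and Cp, the plasma ferroxidase ceruloplasmin, 0.28 ± 0.11.

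Of 28 tested genes of iron handling and BMP signalling, 13 were above 0 and 15 below, with a median log2 fold change of −0.01 against 0.00 over all genes. At an unadjusted p below 0.05, 3 were higher and 4 lower (all genes: 2.90% higher and 2.85% lower). These counts were 0 and 3 without animals 13 and 15, and without exposed animal 23 alone no member was higher at that p.

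The stretch upstream of Hamp is shown because BMP and STAT3 signals are known to reach the gene there. It covers the 250 bases before the annotated start in RefSeq, build GRCr8 (chr1:95300272-95300521, minus strand), 5′ to 3′, with capitals for a BMP-responsive motif, GGCGCC, and a STAT3 motif, TTCTTGGAA.
Hamp: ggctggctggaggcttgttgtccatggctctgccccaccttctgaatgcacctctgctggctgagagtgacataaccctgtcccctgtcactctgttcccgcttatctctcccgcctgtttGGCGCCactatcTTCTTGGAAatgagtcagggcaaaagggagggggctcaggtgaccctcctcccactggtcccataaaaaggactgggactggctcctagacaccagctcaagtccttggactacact
The first lies 129 to 124 bases and the second 117 to 109 bases before the start. Searched on both strands in the same 250 bases of 33469 promoters, GGCGCC, which reads the same on both strands, occurred in 8.69% and TTCTTGGAA in 0.469%. Among 18 promoters matched for the iron and BMP list, 4 (22.2%) held GGCGCC. The share was 11 of 45 (24.4%) for the ER to Golgi list described below, 4 of 19 (21.1%) for ER chaperones and 4 of 28 (14.3%) for ER translocation. It was thus not particular to the iron and BMP list. A listed gene was counted once over all its promoters, while the 8.69% counted every promoter. A match of letters is a description and does not show a factor at the site.

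On the higher side, several of the genes with the smallest p belong to the early secretory pathway. They were Uso1, the tether that docks ER vesicles at the Golgi, Bet1, a SNARE that fuses them, and Ssr3, part of the complex that sits beside the translocon. Uso1 stood at 138, 154 and 173 CPM in sham and 168, 184 and 229 CPM in exposed animals (lowest, median and highest), a log2 fold change of 0.30 ± 0.08. Animals 13 and 15 were the highest and animal 17 lay inside the sham range. Bet1 stood at 36.4, 40.2 and 45.1 CPM in sham and 43.5, 47.2 and 60.7 CPM in exposed animals, again with animals 13 and 15 highest and the groups overlapping through animal 17 (log2 fold change 0.32 ± 0.09).

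Ssr3 had groups without overlap. Its levels were 102, 119.7 and 125 CPM in sham and 127, 135 and 186 CPM in exposed animals (lowest, median and highest), with a log2 fold change of 0.33 ± 0.09. Exposed animals other than 13 and 15 reached at most 136 CPM, close to the top of the sham range. When these 2 animals were left out, the log2 fold change of Ssr3 was 0.19, that of Uso1 0.21 and that of Bet1 0.21. With the axis score as a covariate they were 0.24, 0.21 and 0.25.

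The lists for this pathway leaned the same way. Of 50 tested genes of ER to Golgi transport, 38 were above 0, with 13 higher and 0 lower at an unadjusted p below 0.05 (all genes: 2.90% higher and 2.85% lower) and a median of 0.11. Copb1, a coat subunit of COPI vesicles, had 0.26 ± 0.08 and Yipf5, a Golgi membrane protein, 0.21 ± 0.08. The summed level of the list had a lowest, median and highest value of 4536, 4871 and 4933 CPM in sham animals and 4726, 5038 and 5659 CPM in exposed animals. Exposed animal 15 was highest and exposed animal 21 lay inside the sham range.

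Without animals 13 and 15, 9 of the ER to Golgi genes were higher and 0 lower, with a median of 0.07. The axis score as a covariate gave 8 higher and 0 lower, with a median of 0.07. The number of higher members was 5 without exposed animal 15 and 14 without exposed animal 17 or 21, the extremes among fits with 1 library left out. The list was proposed with earlier results of these animals known, so its count is not independent evidence of its direction.

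Genes that bring proteins into the ER were more mixed. Of 30 tested, 20 were above 0 and 10 below, with a median of 0.05. At an unadjusted p below 0.05, 5 were higher and 1 lower (all genes: 2.90% higher and 2.85% lower). Spcs3, a signal peptidase subunit, had 0.26 ± 0.09 and Ssr1, a partner of Ssr3, 0.20 ± 0.07. The lower member was Ost4, a small subunit of the oligosaccharyltransferase, at 28.7 ± 1.78 CPM in sham and 22.9 ± 2.70 CPM in exposed animals (SD, n = 6), without overlap. Leaving out animals 13 and 15 gave 1 higher member and 1 lower, and without exposed animal 15 alone 3 were higher.

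Of 26 tested ER chaperones and genes of the unfolded protein response, 22 were above 0, with a median of 0.13, and 4 were higher and 0 lower at an unadjusted p below 0.05 (all genes: 2.90% higher and 2.85% lower). Hsp90b1, the ER member of the HSP90 chaperones, stood at 644, 716 and 816 CPM in sham and 678, 836 and 996 CPM in exposed animals (lowest, median and highest; log2 fold change 0.25 ± 0.09). Exposed animal 21 was below the sham median, so the groups overlapped. Atf6, a sensor of the response, had 0.22 ± 0.09, Dnajc3, a co-chaperone, 0.14 ± 0.06 and Syvn1, a ubiquitin ligase of ER-associated degradation, 0.15 ± 0.07. The counts were 4 and 0 in the fit that left out animals 13 and 15, with a median of 0.09. With 1 library left out the number of higher members ran from 1, without exposed animal 15, to 7, without exposed animal 13 or 21.

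Upstream sequences of 3 of these genes are shown to set the chaperone genes beside the vesicle genes. The chaperone genes were added to the promoters planned, and Atf6 and Syvn1 are not shown. These sequences are thus examples and do not stand for their lists. They are the 250 bases before the RefSeq start in GRCr8, for Hsp90b1 (chr7:23012294-23012543, minus strand), Dnajc3 (chr15:102432417-102432666, plus strand) and Uso1 (chr14:16216390-16216639, minus strand). Capitals mark matches to the ER stress element, CCAAT and CCACG with 9 bases of any kind between them, on either strand, and in Dnajc3 also 1 match to GGCGCC next to the start.
Hsp90b1: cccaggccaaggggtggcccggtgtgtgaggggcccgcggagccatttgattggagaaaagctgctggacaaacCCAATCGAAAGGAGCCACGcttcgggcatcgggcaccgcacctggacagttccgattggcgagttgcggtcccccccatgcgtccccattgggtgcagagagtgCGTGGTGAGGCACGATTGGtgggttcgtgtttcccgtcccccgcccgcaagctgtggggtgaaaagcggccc
Dnajc3: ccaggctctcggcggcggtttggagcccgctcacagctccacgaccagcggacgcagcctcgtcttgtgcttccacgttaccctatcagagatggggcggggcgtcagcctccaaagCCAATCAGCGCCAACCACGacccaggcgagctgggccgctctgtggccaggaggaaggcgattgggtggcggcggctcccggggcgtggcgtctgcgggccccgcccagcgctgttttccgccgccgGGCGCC
Uso1: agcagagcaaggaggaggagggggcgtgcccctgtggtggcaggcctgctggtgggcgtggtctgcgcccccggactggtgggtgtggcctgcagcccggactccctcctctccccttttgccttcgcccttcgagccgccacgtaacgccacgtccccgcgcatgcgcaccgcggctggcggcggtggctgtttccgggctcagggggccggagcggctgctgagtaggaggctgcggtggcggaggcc
The ER stress element occurred in 22 of 33469 promoters (0.0657%), in 9 of 19 matched from the chaperone list (47.4%) and in 0 of 45 and 0 of 28 from the ER to Golgi and translocation lists. Each listed gene was again counted once over all its promoters. The motif TGACGTGG, bound by factors of the same response, occurred in 0.520% of all promoters and in 7 of 45 (15.6%) from the ER to Golgi list. Uso1 held neither, and no match says only that these letters are not in this window.

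**Figure D2:**
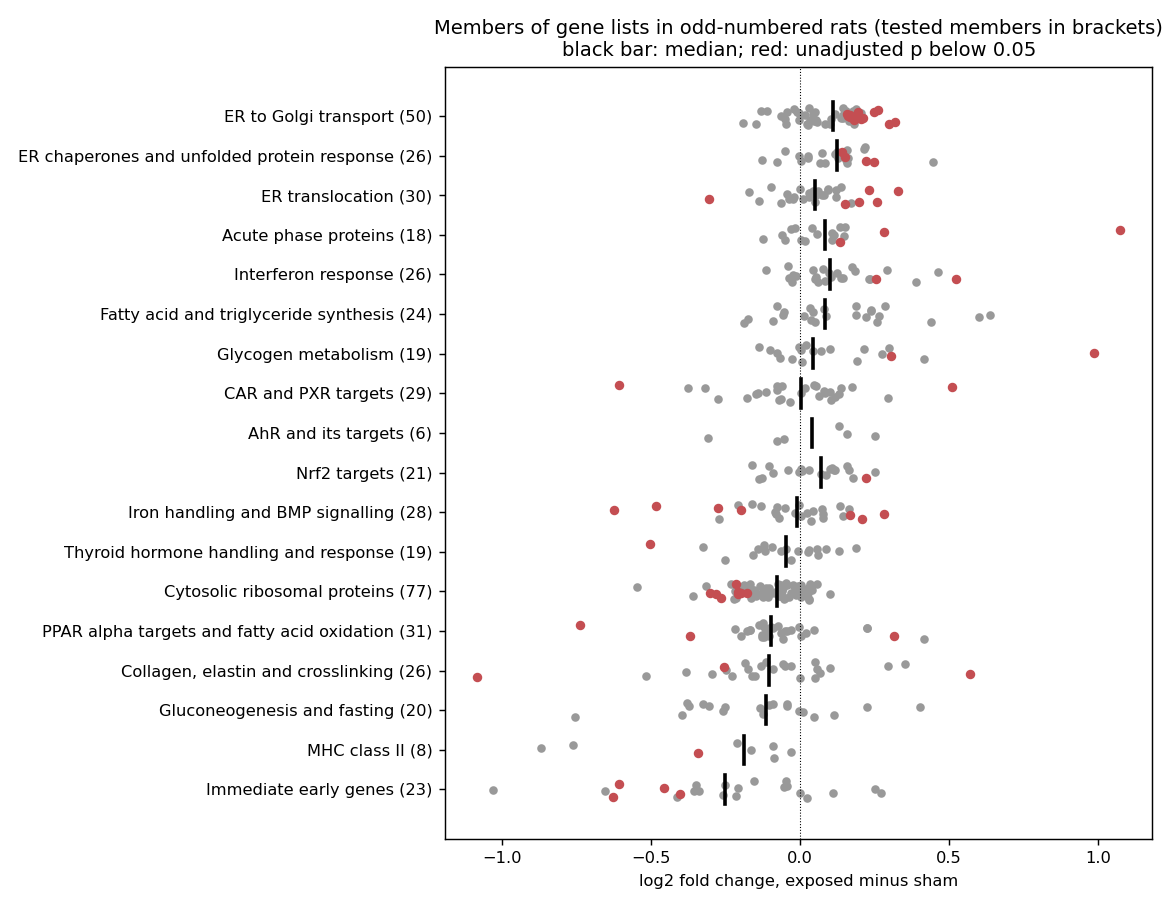
Log2 fold change of each tested member of 18 gene lists, exposed minus sham odd-numbered rats, with the list's median as a black bar and members at an unadjusted p below 0.05 in red. The medians run from −0.25 for immediate early genes to 0.13 for ER chaperones, beside 0.00 over all genes tested.

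The remaining higher genes named were of varied function. Gbe1, the glycogen branching enzyme, stood at 196, 205 and 229 CPM in sham and 214, 259 and 292 CPM in exposed animals (lowest, median and highest; log2 fold change 0.31 ± 0.08), and animals 17 and 21 lay inside the sham range. Esr1, the estrogen receptor alpha, stood at 9.22, 11.4 and 14.3 CPM in sham and 12.4, 15.7 and 21.1 CPM in exposed animals (0.48 ± 0.14). Its highest exposed animals were 19 and 17, and animals 21 and 23 lay inside the sham range. Maged1, a MAGE family adaptor, had 0.31 ± 0.09, Nudt12, a hydrolase of NAD(P)H, 0.31 ± 0.09, Jrkl 0.58 ± 0.16 and Ascc3, a helicase of the ASC-1 complex, 0.34 ± 0.10. In the fit without animals 13 and 15, Esr1 had 0.50 and Maged1 0.40, while Ascc3 had 0.21.

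The glycogen genes had a median near 0. Of 19 tested, 13 were above 0 and 6 below (median 0.04). At an unadjusted p below 0.05, 2 were higher, Gbe1 among them, and 0 lower (all genes: 2.90% higher and 2.85% lower). Fatty acid and triglyceride synthesis had 18 of 24 above 0 and a median of 0.08, with 0 members at an unadjusted p below 0.05 in either direction. Without animals 13 and 15 the split was 13 above and 11 below, with a median of 0.02, and with 1 surrogate variable the median was 0.02. Its largest named member was Scd, a fatty acid desaturase, at 1623 ± 665 CPM in sham and 2441 ± 784 CPM in exposed animals (0.60 ± 0.33).

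Genes of fasting and fatty acid oxidation leaned lower, but less so without animals 13 and 15. Of 20 gluconeogenesis and fasting genes, 15 were below 0 (median −0.11) and 0 had an unadjusted p below 0.05. Without animals 13 and 15, 10 were below 0 and 10 above. Pck1, the rate-limiting enzyme of gluconeogenesis, stood at 4458 ± 613 CPM in sham and 3687 ± 758 CPM in exposed animals (−0.25 ± 0.13), and Igfbp1, an insulin-repressed binding protein, had −0.75 ± 0.39. Of 31 PPAR alpha targets and fatty acid oxidation genes, 24 were below 0 (median −0.10), against 16 below and 15 above without animals 13 and 15. Cd36, a fatty acid transporter, had 0.32 ± 0.14, and Cyp4a3, a fatty acid hydroxylase, −0.74 ± 0.35.

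Immediate early genes, the first to respond to signals reaching a cell, had 19 of 23 members below 0, a median of −0.25, and 4 lower and 0 higher at an unadjusted p below 0.05 (all genes: 2.90% higher and 2.85% lower). The summed level had a lowest, median and highest value of 739, 902 and 1449.8 CPM in sham animals and 672, 801 and 865 CPM in exposed animals, and sham animal 3 stood alone at the top. With the axis score as a covariate 0 members were lower, and 1 was lower without animals 13 and 15, with medians of −0.19 and −0.24. Leaving out exposed animal 13 or 23 alone also left 0 lower. Glucocorticoid responsive genes had a median of 0.09 and 1 lower member at an unadjusted p below 0.05 (all genes: 2.85%), Cebpd, a transcription factor of the acute phase (−0.61 ± 0.22). Their median was −0.16 without exposed animal 21.

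Cytosolic ribosomal protein genes had 61 of 77 below 0 and a median of −0.08, with 8 lower and 0 higher at an unadjusted p below 0.05 (all genes: 2.90% higher and 2.85% lower). Fau, which encodes a ribosomal protein fused to a ubiquitin-like part, had −0.30 ± 0.12. Their summed level had a lowest, median and highest value of 11623, 12517 and 13139 CPM in sham animals and 11054, 11629.8 and 12330.1 CPM in exposed animals. Animals 15 and 13, the highest on the library axis, had the lowest sums, and sham animal 11, the highest sham animal on the axis, had the lowest sham sum. Other animals went the other way. Exposed animal 17, at −3.11 on the axis, had the next lowest exposed sum (11315 CPM), and exposed animal 23, at 4.87, had the highest. Leaving out animals 13 and 15 left 1 lower member. With 1 library left out the number ran from 0, without sham animal 1, to 18, without exposed animal 21.

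**Figure D3:**
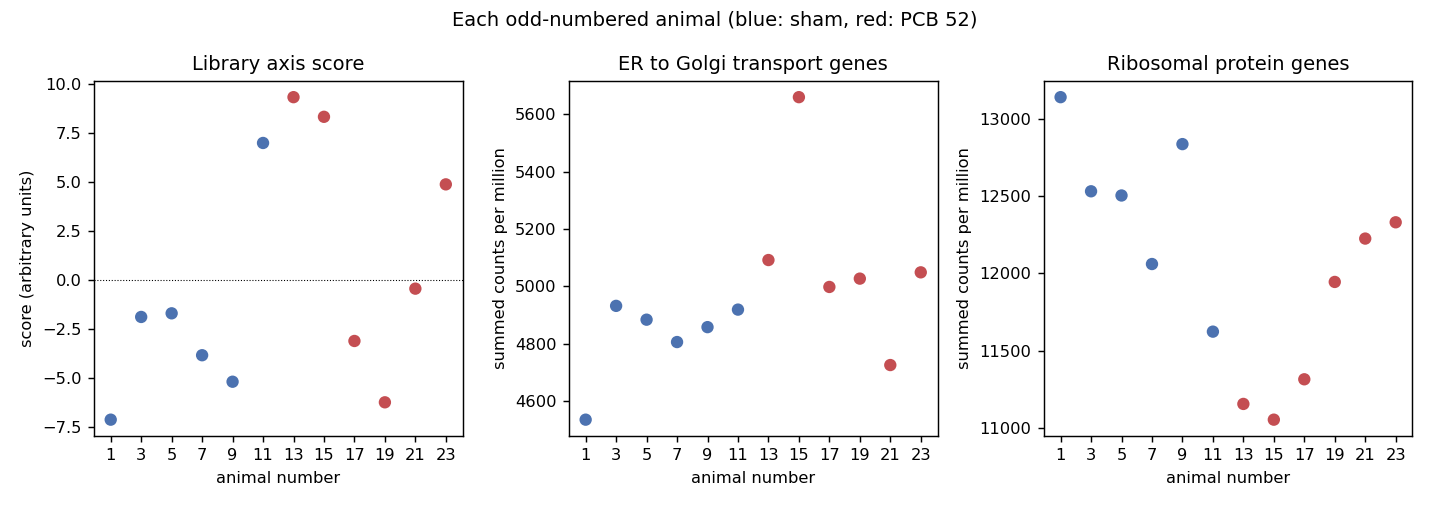
Library axis score (arbitrary units) and summed CPM of the ER to Golgi and ribosomal protein genes in each odd-numbered animal, sham in blue and PCB 52 in red. Animals 13 and 15 have the highest scores, 9.32 and 8.31, and the lowest ribosomal sums, 11156 and 11054 CPM. Animal 23, with a score of 4.87, has the highest exposed ribosomal sum, 12330 CPM.

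In the main fit, the receptor programs through which PCBs are known to act had at most 1 member in each direction at an unadjusted p below 0.05. Of 29 CAR and PXR targets, 15 were above 0 and 14 below, with a median of 0.00. At an unadjusted p below 0.05 there was 1 member in each direction (all genes: 2.90% higher and 2.85% lower). The higher one was Cyp3a62, a P450 of the Cyp3a family, at 10.8, 12.99 and 15.5 CPM in sham and 14.5, 17.97 and 26.8 CPM in exposed animals (lowest, median and highest; log2 fold change 0.51 ± 0.14). Animal 13 was highest, and animals 19 and 21 lay inside the sham range. The lower one was Gadd45b, a stress gene (−0.61 ± 0.27). Without animals 13 and 15 the list had 2 higher members and 0 lower, and without exposed animal 21 it had 1 higher and 2 lower.

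The classical inducible enzymes had wide intervals. Cyp2b1 had a 95% interval of −1.30 to 0.66 and Cyp2b2 one of −1.34 to 0.59, and these near-identical paralogs may share reads. Cyp3a23-3a1 was held more tightly, at −0.22 to 0.26. Cyp1a1 had −1.11 to 0.49 and Cyp1a2, the AhR target most abundant in liver, −0.41 to 0.30, all on the log2 scale and all including 0. Of 6 tested genes of AhR and its targets, 3 were above 0 and 3 below (median 0.04). Without animals 13 and 15 the split was 5 above and 1 below (median 0.13), with 1 member higher at an unadjusted p below 0.05, and with the axis score as a covariate it was 5 and 1 (median 0.09). Nrf2 targets, the antioxidant genes, had 14 of 21 above 0 (median 0.07, and 0.02 without animals 13 and 15). With the axis score as a covariate 10 were above 0 and 11 below (median −0.03), and with 1 surrogate variable the median was 0.00. Gclc, which makes glutathione, had 0.22 ± 0.10 and Nqo1, a quinone reductase, 0.25 ± 0.13 in the main fit.

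Thyroid hormone genes, examined because PCBs are known to disturb this hormone, had 12 of 19 members below 0 and a median of −0.05. The 1 member at an unadjusted p below 0.05 (all genes: 5.75%) was Gpd2, a mitochondrial glycerol phosphate dehydrogenase and classic target of the hormone (−0.50 ± 0.22). Ugt1a1, which conjugates thyroxine, had a 95% interval of −0.31 to 0.18, Thrsp, a lipogenic target, one of −0.18 to 0.56, and Cyp7a1, which starts the making of bile acids, one of −0.75 to 0.56.

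MHC genes differed from animal to animal inside both groups. RT1-A1, a class I gene, stood at 30.1, 35.5 and 40.9 CPM in sham and 20.9, 26.1 and 31.04 CPM in exposed animals (lowest, median and highest), a log2 fold change of −0.45 ± 0.11. Exposed animals 13 and 15 were lowest, and animal 17 lay inside the sham range. RT1-A1 has near-identical relatives, so its count is uncertain.

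The class II genes RT1-Bb and RT1-Ba, the chains of one class II molecule, were either present or close to absent. RT1-Bb stood at 5.57, 10.4 and 12.9 CPM in sham and 0, 4.21 and 13.5 CPM in exposed animals (lowest, median and highest). It reached 1 CPM in 6 of 6 sham and 3 of 6 exposed animals, and in 3 of 6 sham and 3 of 6 exposed even-numbered animals. Exposed animals 13, 15 and 19 were the ones without it, and the same animals were under 1 CPM for RT1-Ba.

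RT1-CE16, a class I gene below the low-count filter, reached 1 CPM in 4 of 6 sham and 1 of 6 exposed odd-numbered animals, and in 3 of 6 and 1 of 6 even-numbered animals. Of 8 tested class II genes, 8 were below 0 (median −0.19), and of 21 class I and antigen presentation genes, 15 were (median −0.11, and −0.01 without animals 13 and 15). Over all genes, 4989 of 10180 were below 0. The 8 include RT1-Ba (−0.87 ± 0.71) and RT1-Bb (−0.76 ± 0.84). At an unadjusted p below 0.05, class II had 0 higher and 1 lower, and class I 1 higher and 2 lower (all genes: 2.90% higher and 2.85% lower). RT1-DMa, which helps to load peptide, had −0.34 ± 0.16, and Cd74, the invariant chain, −0.21 ± 0.11.

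**Figure D4:**
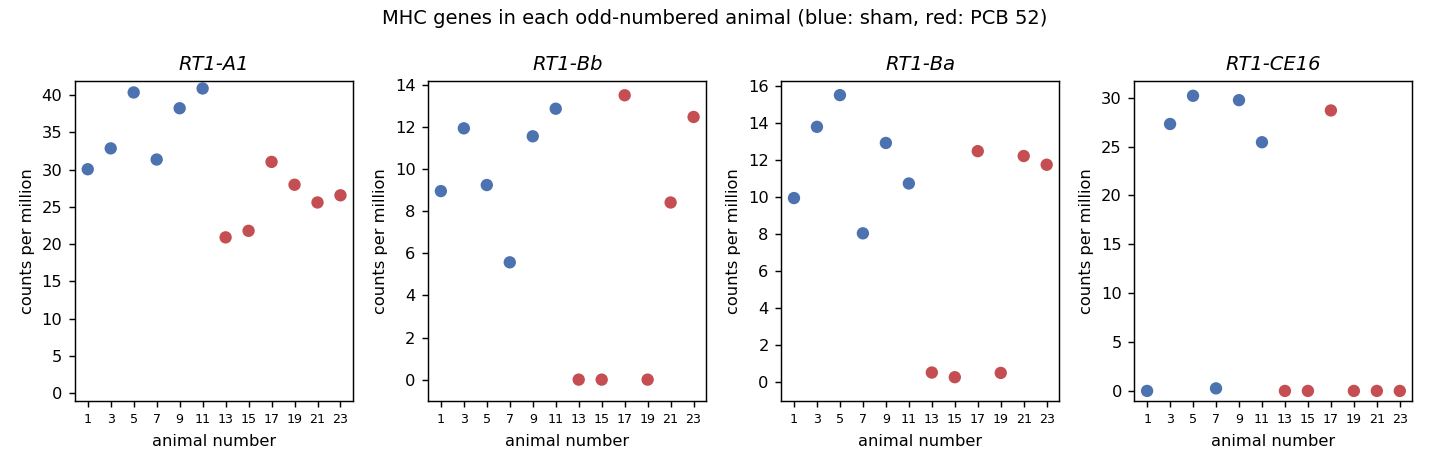
CPM of 4 MHC genes in each odd-numbered animal, sham in blue and PCB 52 in red. RT1-Bb and RT1-Ba are near 0 in animals 13, 15 and 19, and RT1-CE16 is near 0 in sham animals 1 and 7 and in every exposed animal except 17.

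Acute phase and interferon genes had medians slightly above 0. Of 18 acute phase proteins, 13 were above 0 (median 0.08). At an unadjusted p below 0.05, 3 were higher and 0 lower (all genes: 2.90% higher and 2.85% lower). The higher ones were Cp, A2m and C3, the central complement component (0.13 ± 0.06). Leaving out animals 13 and 15 left 2 higher, and leaving out animal 13 alone left 1. Of 26 interferon response genes, 20 were above 0 (median 0.10), and Oasl2, an antiviral gene, stood at 5.71 ± 1.29 CPM in sham and 8.10 ± 2.53 CPM in exposed animals (0.52 ± 0.20). The interferon median was 0.03 without sham animal 1, with 14 above 0 and 12 below, and 0.03 without either exposed animal 15 or exposed animal 23. With the axis score as a covariate it was 0.05, and the 2 members higher at an unadjusted p below 0.05 in the main fit (all genes: 2.90%) became 0. Heat shock genes split 15 above and 9 below, with Hspe1, a mitochondrial chaperonin, at −0.30 ± 0.11.

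Markers of the other liver cell types were compared in the same way, and in bulk tissue fewer cells of a type and less RNA per cell cannot be told apart. Kupffer cell and macrophage markers split 10 above and 9 below (median 0.03), with 3 higher at an unadjusted p below 0.05 (all genes: 2.90%). The number was 1 without sham animal 1. Vsig4, a complement receptor of Kupffer cells, led them at 21.4, 25.1 and 26.4 CPM in sham and 25.8, 28.8 and 38.3 CPM in exposed animals (lowest, median and highest; 0.33 ± 0.11), and the groups overlapped. Endothelial markers had a median of 0.01 with 2 of 14 lower at an unadjusted p below 0.05 (all genes: 2.85%), Plvap and Egfl7 (−0.25 ± 0.11). Stellate cell markers had a median of 0.01 and none at an unadjusted p below 0.05 by edgeR.

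Collagen, elastin and crosslinking genes had 17 of 26 below 0 (median −0.10). At an unadjusted p below 0.05 (all genes: 2.90% higher and 2.85% lower), 1 was higher, Plod2, and 2 lower, Loxl1 and Col6a2, a collagen VI chain (−0.26 ± 0.10). Without animals 13 and 15 the counts were 0 and 1 and the median −0.04. Erythroid markers summed to a lowest, median and highest value of 125, 158 and 276 CPM in sham animals and 42.2, 140.0 and 253 CPM in exposed animals, with 5 of 5 below 0 (median −0.24) and wide overlap. Cell cycle genes had a median of −0.09, with Mki67, a proliferation marker, at 3.93 ± 1.46 CPM in sham and 2.50 ± 0.903 CPM in exposed animals (−0.62 ± 0.27). No neutrophil marker passed the low-count filter.

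Genes of the male pattern of liver expression were at male levels in both groups. Cyp2c11, the main male P450, which depends on pulsed growth hormone, stood at 4666, 4881 and 5337 CPM in sham and 4708, 5678 and 6623 CPM in exposed animals (lowest, median and highest; 0.22 ± 0.08), against at most 9.46 CPM in even-numbered animals, and the male groups overlapped. Dhrs7l1, a dehydrogenase of the same male pattern, had −0.36 ± 0.15. Of 13 male-predominant genes tested, 6 were above 0 and 7 below, and of 12 female-predominant genes 8 were above 0 (median 0.14). Leaving out exposed animal 23 alone split the female-predominant genes 6 above and 6 below (median 0.00), and the axis score as a covariate gave a median of 0.05.

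The sham animals alone varied widely in a few genes. Over 8344 genes with a mean of at least 5 CPM, the median SD of log2 CPM among the 6 sham males was 0.17. It was 2.94 for Obp3, an odorant-binding urinary protein, which ran from 0.368 to 111 CPM, and 1.68 for Cish, a feedback inhibitor of growth hormone signalling, which ran from 2.58 to 92.6 CPM. Onecut1, a hepatocyte transcription factor under growth hormone control, ran from 5.03 to 139 CPM, and Sstr3, a somatostatin receptor, from 1.14 to 56.5 CPM. Clca2 was at 0 in sham animals 5 and 7, and Ubd, a ubiquitin-like modifier, was at 0 in sham animal 1 and exposed animal 15. The exposed ranges of Obp3, Cish and Onecut1 overlapped those of sham.

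The 20 named genes were then read in the even-numbered females, which did not enter the choice and have their own sham group. The sign was the same for 16 of 20, 9 of 10 higher and 7 of 10 lower, and 8 had an unadjusted p below 0.05 there, where 9.96% of all genes did. The share of all genes with the same sign in both tables was not computed, so the count of signs has no background beside it. Hamp matched most closely, with −0.48 ± 0.14 in females and a difference of 0.00 ± 0.19. Ssr3 had 0.31 ± 0.11, Uso1 0.25 ± 0.09, Bet1 0.48 ± 0.16, Nudt12 0.46 ± 0.13 and Apoa5 −0.34 ± 0.11 in females. The signs differed for Esr1 (−0.09 ± 0.18), Loxl1 (0.28 ± 0.37), Zfp697 (0.33 ± 0.23) and Rcc1l (0.02 ± 0.11). The library axis was itself found in the females, and its part in these shared signs was not tested.

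The difference in response between the tables was tested in 1 fit of all 24 libraries. Males started at 39 days and females at 42, so sex and starting age cannot be told apart in it. By the edgeR quasi-likelihood interaction test 0 of 10535 genes passed (0%), with 239 (2.27%) at an unadjusted p below 0.05, and DESeq2 called 0 with 297. Among the 20 named genes, 7 had an unadjusted p below 0.05 for the difference, and the smallest adjusted p was 1.00. These genes were named for their small p in males, which enlarges the difference by itself, so nothing is read from that count beside the 2.27%. Loxl1 differed by −1.36 ± 0.45, Zfp697 by −0.81 ± 0.26, Esr1 by 0.57 ± 0.24 and Tssc4 by −0.47 ± 0.17 (male minus female, log2).

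Over all genes, the smallest p for a response higher in males belonged to Camlg, which inserts tail-anchored proteins into the ER (0.58 ± 0.16), followed by Aig1, a hydrolase of fatty acid esters (1.19 ± 0.35), C1h19orf47 (0.60 ± 0.18), Mcm7, a replication helicase subunit (0.55 ± 0.17), and the kinase gene Dstyk (0.54 ± 0.17). Those for a response lower in males belonged to Ldhb, a lactate dehydrogenase subunit (−1.14 ± 0.32), Etv5, an ETS transcription factor (−0.83 ± 0.23), Homez, a homeobox gene (−0.76 ± 0.22), Tubgcp2, of the gamma-tubulin complex (−0.38 ± 0.12), and Zfp697. In the males themselves Camlg had 0.18 ± 0.12 and Mcm7 0.13 ± 0.12, while Etv5 had −0.21 ± 0.18, so for these 3 genes the larger part of the difference lay in the females.

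**Figure D5:**
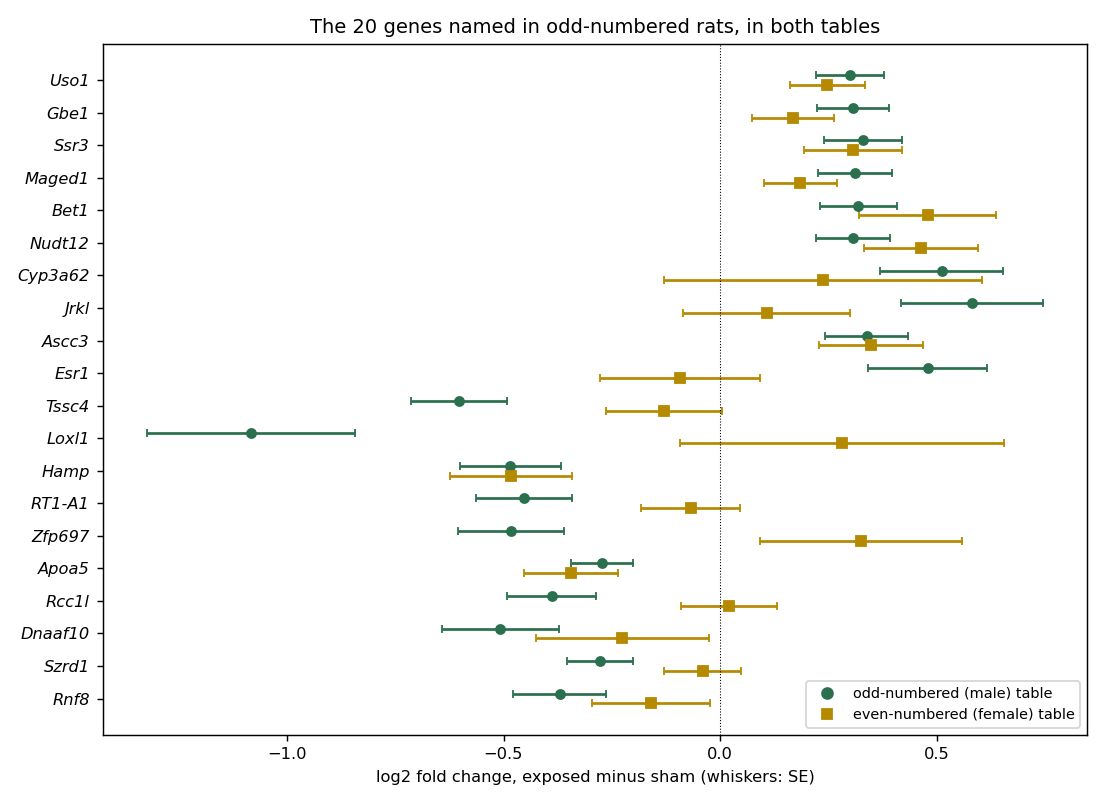
Log2 fold change, exposed minus sham, of the 20 named genes in the odd-numbered male table (circles) and the even-numbered female table (squares), with SE as whiskers. The points have the same sign for 16 of 20 genes, and differ in sign for Esr1, Loxl1, Zfp697 and Rcc1l.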

How the data were processed

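Values were raw gene counts that the authors deposited in 1 table per sex. FastQC, the aligner HISAT2 and the build rn6 are named in the submitters' processing notes. How reads were counted, on which annotation and with which strand setting, is not given in the sources used here. Thus overlapping, antisense and near-identical genes could not be told apart. The labels' protocol lists poly(A) capture as well as rRNA removal. Of 15319 Entrez IDs, 15230 matched a symbol in a RefSeq table of GRCr8; the other 89, up to 2.12% of counts, were kept. Promoters came from RefSeq in the same build.

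Odd-numbered animals were fitted alone with edgeR 4.0.16 in R 4.3.3, using TMM factors, filterByExpr (minimum count 10, minimum total 15), the robust quasi-likelihood test and Benjamini-Hochberg adjustment over 10180 genes at 0.05. Printed CPM are counts per library total. No replicate pair agreed within sampling noise (lowest chi-square per degree of freedom 6.68). Each library is 1 animal. The named genes were the 10 genes of smallest p in each direction, preset PCB and thyroid genes, up to 4 members of each list described with the smallest p, 5 interaction genes in each direction and the 8 most variable sham genes. Provisional symbols were left out. The members and lists were chosen with earlier results of these data known. Alternatives were other factors, filters, DESeq2 1.42.0, limma-voom (limma 3.58.1), 1 surrogate variable (sva 3.50.0), the library axis score, single libraries left out and animals 13 and 15 left out. The axis score and surrogate variable for the gene lists were added after seeing the data. The fit was tested on simulated data. Some genes that the naming rule selects enter the text only through counts over their list, and 1 is not reported here.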

Additional observations from a re-analysis of the deposited data

Results flagged for a closer look

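Among groups of 6 animals checked for a single distant value by Dixon's 95% limit, 17 (5.03%) were past it, near the 1 in 20 that chance gives. Among exposed animals, animal 13 was distant for Nqo1 (10.8 CPM) and for the summed neutrophil markers (34.9 CPM). That sum rested on Lcn2, lipocalin 2, at 33.3 CPM in animal 13 and 0.492 to 2.49 CPM in the other animals, while Mpo, Elane and Camp were at 0. Animal 13 was also highest for the acute phase gene A2m. Animal 15 was distant for Fbln5 (14.97 CPM), Sult1e1 (1289.9 CPM) and the summed ER translocation genes (3997 CPM). Animal 21 was distant for Igfbp1 (121 CPM).

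Among sham animals, animal 1 was lowest for Ugt1a6 (16.2 CPM), Mx1 (7.24 CPM), the summed circadian genes (913 CPM) and the summed ER to Golgi genes (4536 CPM). Animal 9 was highest for Ifit2 (21.1 CPM), Sult1e1 (852 CPM) and the summed erythroid markers (276 CPM), and lowest for Cdh5 (18.6 CPM). Animal 11 was highest for A1bg (0.858 CPM) and Got1 (453 CPM), and animal 3 for the summed immediate early genes (1449.8 CPM).

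For Mcm3, a replication helicase subunit, and Ldhb, every exposed male lay on one side of its sham mean and every exposed female on the opposite side. The mean differences in males were −0.670 CPM for Mcm3 and −0.754 CPM for Ldhb. This pattern of single animals was not itself tested. In the interaction test described above, 0 of 10535 genes passed, and Ldhb was among those that did not.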

How the results depend on the processing

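No gene passed under any alternative for the exposed against sham males except with DESeq2, which called 1 gene, Tssc4 (log2 fold change −0.61, adjusted p = 0.0234). At an unadjusted p below 0.05 the fits gave 397 to 854 genes, the fewest with the axis score as a covariate and the most without exposed animal 17. The male minus female response gave 0 genes in every alternative run, with 221 to 403 at an unadjusted p below 0.05. Of 2681 values of 122 named genes, 2662 kept their direction and their side of the threshold and 18 changed sign, in genes whose value was near 0 or imprecise. Without animals 13 and 15, the log2 fold change of Cyp1a1 was 0.0663, the log2 fold change of Cyp1a2 0.116, the log2 fold change of Cyp7a1 0.0675 and the log2 fold change of RT1-DMb 0.0352. With the axis score Cyp1a2 had 0.0227 and Cyp7a1 8.04e-04, with 1 surrogate variable they had 0.0488 and 0.0242, and with limma-voom the log2 fold change of Cyp2b2 was 0.0467. With 1 library left out, Cyp1a2 ran from −0.193 (without exposed animal 17) to 0.0297 (without exposed animal 15), Cyp3a23-3a1 from −0.0621 to 0.0675, Ugt1a1 from −0.161 to 0.0129 and Cyp7a1 from −0.253 to 0.113. The cause was not tested. Of 702 medians of 39 gene lists, 9 moved by more than the spread between animals. No paired analysis was possible because the labels give no replicate numbers shared between the groups.

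Depth limits scarce genes most: Loxl1, at 1.43 CPM on average in exposed animals, rests on few counts per library, where 1 count is worth 0.118 to 0.143 CPM.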
